A study of Mus musculus with 9 samples.

Results

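The 7 genes described here are the mouse genes Id1, Id2, Id3, Id4, Smad6, Smad7 and Bambi, which are used as targets and feedback genes of bone morphogenetic protein (BMP) signalling. They were chosen by symbol from the 32285 mouse genes of the count matrices, and each symbol matched a row in all 9 matrices. The libraries are single-cell RNA-seq of forelimb buds at E10.75 (37 to 39 somites), with 3 libraries of wild-type embryos (Wt), 3 of E1C8Δ/Δ (EC1CRM8Δ/Δ) and 3 of E1C5Δ/Δ (EC1CRM5Δ/Δ). Both mutant alleles are homozygous germline deletions of limb bud enhancers of Grem1, and both give limbs that lack a digit. The labels name no further allele and no treatment, and the 4 transgene features of the matrices held 0 mesenchymal UMIs. Every library holds the cells of a pair of forelimb buds of a single embryo, so the embryo is the replicate. The comparison asks how the readouts of BMP signalling differ when less of the BMP antagonist Grem1 is made.

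BMP ligands bind paired receptors at the cell surface, which phosphorylate the transducing SMAD proteins, and these enter the nucleus with SMAD4 and switch on target genes. Id1 to Id4 encode helix-loop-helix proteins without a DNA-binding region, which bind E proteins such as Tcf3, Tcf4 and Tcf12 and keep them from DNA. Smad6 and Smad7 encode inhibitory SMADs, which hold back the receptors and the transducing SMADs, and Bambi encodes a pseudoreceptor that lacks the kinase domain. Smad6, Smad7 and Bambi are thus brakes on the pathway that induces them. In the limb bud, GREM1 binds BMPs outside the cell and lowers signalling in the distal and posterior mesenchyme.

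In the GRCm38 build, Id1 spans chr2:152736251-152737410, Id2 spans chr12:25093799-25097140, Id3 spans chr4:136143497-136145755, Id4 spans chr13:48261228-48266026 and Smad6 spans chr9:63953076-64022059. All 7 members are protein-coding genes outside the sex chromosomes.

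The 250 bases before the RefSeq start of Id4 and Smad6 are shown, as an Id gene and a feedback gene that differ in the letters to which SMADs bind. The sequences are those of RefSeq on GRCm38.p6, written 5′ to 3′ along the strand of the gene, at chr13:48260866-48261115 (plus strand) for Id4 and chr9:64022060-64022309 (minus strand) for Smad6. Both lie upstream of every transcript of the gene in GENCODE M21. Capitals mark the letters GGCGCC, a core of BMP-responsive elements, and the letters GTCT or, on the other strand, AGAC, the SMAD box.
Id4: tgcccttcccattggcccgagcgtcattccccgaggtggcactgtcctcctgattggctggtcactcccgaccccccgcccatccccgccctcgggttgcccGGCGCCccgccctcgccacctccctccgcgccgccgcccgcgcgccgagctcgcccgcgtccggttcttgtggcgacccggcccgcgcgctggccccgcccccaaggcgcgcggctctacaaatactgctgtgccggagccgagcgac
Smad6: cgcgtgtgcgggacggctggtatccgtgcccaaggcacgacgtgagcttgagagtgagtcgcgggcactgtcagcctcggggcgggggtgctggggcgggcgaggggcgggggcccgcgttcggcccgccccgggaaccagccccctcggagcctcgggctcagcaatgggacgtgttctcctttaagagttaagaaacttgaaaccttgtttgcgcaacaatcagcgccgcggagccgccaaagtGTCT
Id4 holds GGCGCC once, beginning 148 bases before the start, and no SMAD box, while Smad6 holds no GGCGCC and a single SMAD box, 4 bases before the start. In the same window Id2 holds GGCGCC once, 231 bases before its RefSeq start, and the SMAD box once, 23 bases before it, and Id3 holds no GGCGCC and 2 SMAD boxes, 166 and 68 bases before it. The windows of Id2 (chr12:25096093-25096342) and Id3 (chr4:136143572-136143821) overlap the transcribed 5′ end of longer GENCODE transcripts and are not printed. Of 32851 promoter windows of 250 bases, 9.59% held GGCGCC and 82.9% held the SMAD box on either strand, and these motifs do not overlap each other.

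Each matrix held 26620760 to 500559729 UMIs, and 44654 cells passed the filters, between 592 and 8699 per library. Of these, 37034 (82.9%) were mesenchymal, 484 to 7096 per library, by the markers Prrx1, Prrx2, Pdgfra, Tbx5, Twist1, Twist2 and Lhx9. No pair of libraries shared more than 0.497% of its cell barcodes. All 3 Wt embryos were male by Xist and Y-linked genes, as were 1 E1C8Δ/Δ and 1 E1C5Δ/Δ embryo, while 2 embryos of each mutant were female. Wt 1 held 21.6 CPM of Xist and E1C8Δ/Δ 3 held 6.61 CPM, against 0.0958 CPM or less in the other male libraries. E1C8Δ/Δ 1, a female library, held 3.12 CPM of the 4 Y-linked genes, against 0.0396 CPM or less in the other female libraries. Results are therefore given also for the 5 male libraries, and without the 2 libraries (Wt 3 and E1C8Δ/Δ 1) that held fewer than 1000 cells. A level is the count of UMIs of a gene relative to all UMIs summed over the cells of a class in a library (CPM, scaled to 1000000 UMIs). CPM counts transcript ends, so that it is not scaled by length, and a higher CPM in a class does not tell more cells with the transcript from more transcript per cell. A gene is called where edgeR's quasi-likelihood test on these sums gave an adjusted p under 0.05 over all autosomal genes tested.

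Grem1 itself was lower in the mutants. Its mesenchymal level was 44.7, 29.5 and 32.1 CPM in the Wt libraries, 11.1, 11.1 and 13.9 CPM in E1C8Δ/Δ and 18.1, 16.3 and 26.1 CPM in E1C5Δ/Δ. All 6 mutant libraries lay below all 3 Wt libraries, with a log2 difference of -1.15 (SE 0.15) between both mutants and Wt (edgeR adjusted p = 0.00642). The difference was -1.55 for E1C8Δ/Δ (edgeR adjusted p = 0.00251) and -0.76 for E1C5Δ/Δ, which did not pass (edgeR adjusted p = 0.0723). In the M3-like, M4-like and P4-like cells described below, Grem1 was called lower in each allele. The differences there were -1.32, -0.98 and -2.14 for E1C8Δ/Δ and -1.28, -0.97 and -1.51 for E1C5Δ/Δ. In the other regions, where Wt held less Grem1, it was not called in E1C5Δ/Δ. In E1C8Δ/Δ it was also called lower in M1-like cells, with -1.24 (edgeR adjusted p = 0.0187), and in P2-like cells, with -1.27 (edgeR adjusted p = 0.0240). E1C5Δ/Δ gave -0.03 and 0.05 in the same cells. The gates of M3-like and M4-like cells hold Grem1 itself. M4-like cells made up 7.38% to 15.6% of the mesenchymal cells in Wt, 9.68% to 11.5% in E1C8Δ/Δ and 17.2% to 20.1% in E1C5Δ/Δ. Their part in the gap between the alleles over the whole mesenchyme was not tested. By immunofluorescence, the study describes GREM1 protein as less reduced in E1C8Δ/Δ than in E1C5Δ/Δ, the reverse order of these RNA sums.

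In GRCm38, Smad7 lies at chr18:75367529-75395935 and Bambi on the same chromosome at chr18:3507923-3516404. Over the whole mesenchyme, Id3 and Bambi passed the test for the mean of both mutants, with the rise in E1C8Δ/Δ, and the other members did not pass. Id3 was at 231, 215 and 219 CPM in Wt, at 407, 389 and 324 CPM in E1C8Δ/Δ and at 218, 257 and 213 CPM in E1C5Δ/Δ. Bambi was at 41.3, 37.7 and 40.8 CPM in Wt, at 70.8, 61.4 and 60.4 CPM in E1C8Δ/Δ and at 37.6, 42.2 and 44.3 CPM in E1C5Δ/Δ. For both genes the E1C8Δ/Δ libraries lay above all Wt libraries, as they did for 16.2% of all genes, and the E1C5Δ/Δ libraries overlapped them. The log2 difference of both mutants from Wt was 0.42 for Id3 (SE 0.09, edgeR adjusted p = 0.0464) and 0.39 for Bambi (SE 0.07, edgeR adjusted p = 0.0210). These 2 of 7 members stand beside 2.15% of all 16164 genes called in either direction. The median log2 difference of the 7 members was 0.20, and that of all genes tested was -0.01.

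Both calls are close to the threshold. None of the members was called with embryo sex as a covariate, beside 8 of 16164 genes, or without the 2 small libraries, beside 45 of 16524. In these fits and in the 5 male libraries, where each mutant is a single embryo, the log2 differences stayed positive. They were 0.38 to 0.46 for Id3 and 0.37 to 0.42 for Bambi. The count was 0 without Wt 2, Wt 3, E1C8Δ/Δ 1 or E1C8Δ/Δ 3, it was 1 without Wt 1, E1C8Δ/Δ 2, E1C5Δ/Δ 1 or E1C5Δ/Δ 2, and it stayed at 2 without E1C5Δ/Δ 3.

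**Figure D1:**
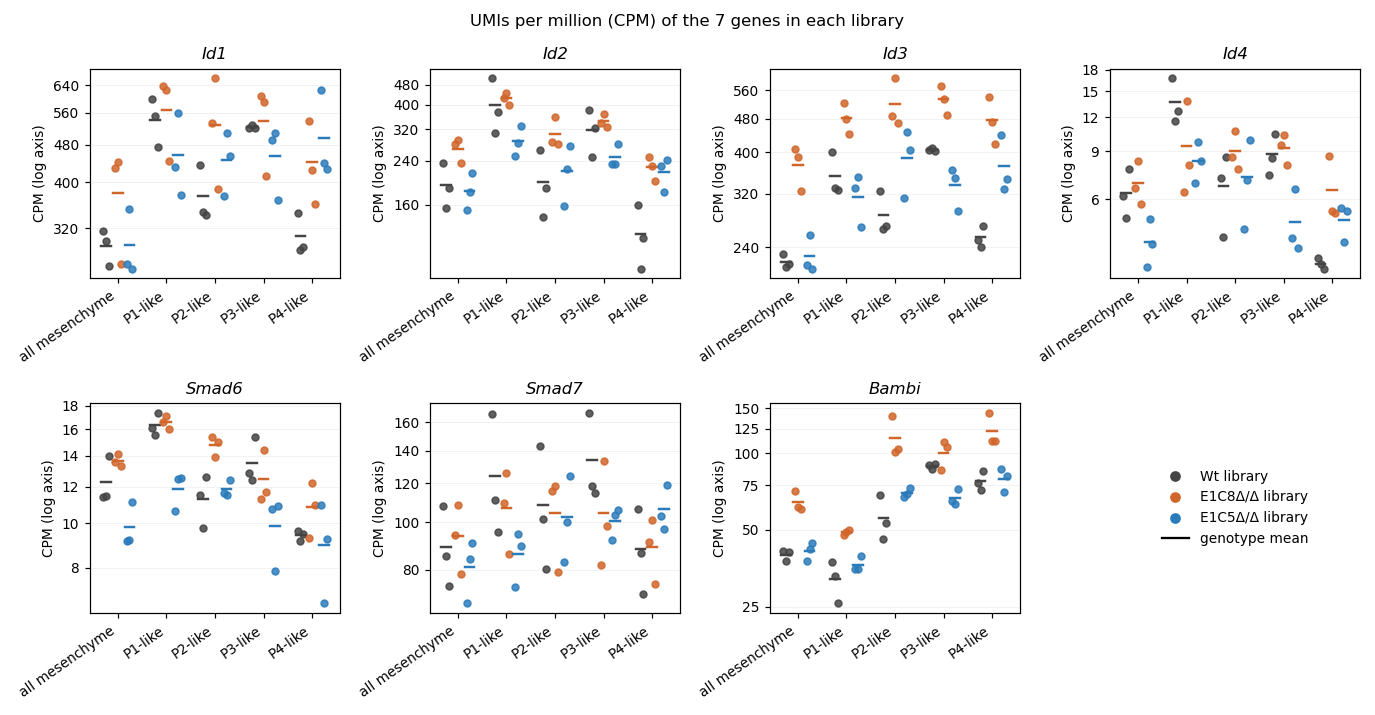
Levels of the 7 members in the summed mesenchyme and in P1-like to P4-like cells, in CPM on a log axis, with a point for each of the 9 libraries coloured by genotype and a bar at the mean of each genotype. In P4-like cells the 3 Wt points of Id1 to Id4 lie below all 6 mutant points, for Id3 from 239.7 to 269 CPM in Wt against 328 to 541 CPM in the mutants.

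The remaining Id genes were not called for both mutants in the whole mesenchyme. Id1 was at 316, 300.2 and 266 CPM in Wt, at 429, 441 and 269 CPM in E1C8Δ/Δ and at 269, 352 and 263 CPM in E1C5Δ/Δ. E1C8Δ/Δ 3 and Wt 3 thus held nearly the same level of Id1, 269 and 266 CPM. Id2 was at 235, 155 and 188 CPM in Wt, at 279, 289 and 235 CPM in E1C8Δ/Δ and at 153, 181 and 214 CPM in E1C5Δ/Δ. All E1C8Δ/Δ libraries lay above Wt, but the lowest of them, at 234.6 CPM, was next to Wt 1 at 234.5 CPM. Id4 was the lowest of the Id genes in CPM, at 6.17, 5.10 and 7.74 CPM in Wt, 6.602, 8.32 and 5.77 CPM in E1C8Δ/Δ and 3.36, 5.05 and 4.09 CPM in E1C5Δ/Δ, where each library lay below the lowest of Wt.

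The inhibitory SMADs were not called between mutants and Wt in the whole mesenchyme. Smad7 was at 108, 85.6 and 74.2 CPM in Wt, 94.0, 108 and 78.6 CPM in E1C8Δ/Δ and 68.4, 84.3 and 90.9 CPM in E1C5Δ/Δ, with overlap of all 3 groups. Smad6 was at 11.4, 11.4 and 14.0 CPM in Wt and at 13.6, 14.1 and 13.3 CPM in E1C8Δ/Δ. In E1C5Δ/Δ, Smad6 lay at 9.13, 9.18 and 11.1 CPM, below each Wt library, as did Id4 and 10.9% of all genes.

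By allele, Id3 and Bambi were called in the whole mesenchyme of E1C8Δ/Δ. Id3 was 0.73 higher on the log2 scale than in Wt (SE 0.11, edgeR adjusted p = 0.00489) and Bambi 0.66 higher (SE 0.08, edgeR adjusted p = 0.00245), 2 of 7 members beside 9.76% of all genes called. Id2 gave 0.46 and did not pass (edgeR adjusted p = 0.0580). In the 5 male libraries, where E1C8Δ/Δ is a single embryo and the spread comes from the Wt libraries, Id3 gave 0.60 and Bambi 0.65 and no member was called, so that a loss of the call there does not show a smaller effect. In E1C5Δ/Δ none of the 7 members was called by edgeR, beside 1.39% of all genes, and Id3 and Bambi each gave 0.11. At an unadjusted p under 0.05 there were 2, beside 2240 of 16164 genes, both lower than Wt, namely Id4 with a log2 difference of -0.53 and Smad6 with -0.26.

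The makeup of the summed mesenchyme also differed between the genotypes. The 9 ectoderm markers summed to 11.9 to 15.5 CPM in mesenchyme of Wt and 17.2 to 19.9 CPM in that of E1C8Δ/Δ, the 6 ridge markers to 9.63 to 10.5 CPM and 15.2 to 16.3 CPM, and the 9 endothelial markers to 21.6 to 23.8 CPM and 23.9 to 26.5 CPM, each without overlap. In the ectoderm itself the ectoderm markers summed to 2056 to 2853 CPM, and in endothelium the endothelial markers to 3673 to 4361 CPM. In E1C5Δ/Δ the 3 sums were 9.37 to 11.4, 9.34 to 12.6 and 21.1 to 22.4 CPM. The part of these markers in the rise of Id3 and Bambi was not tested. Among the regions into which the mesenchyme was divided by marker genes, C1-like cells, which were low in Bambi, made up 14.7% to 21.9% of the mesenchymal cells in Wt, 6.61% to 11.7% in E1C8Δ/Δ and 3.61% to 8.70% in E1C5Δ/Δ. M3-like cells, which were low in both genes, made up 9.97% to 13.9%, 6.82% to 6.91% and 9.42% to 11.97%, and P3-like cells, which were high in both, 8.29% to 10.1%, 12.3% to 14.0% and 7.71% to 14.5%.

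The alleles differed from each other in 5 of the 7 members, beside 10.2% of all genes. On the log2 scale E1C5Δ/Δ was below E1C8Δ/Δ by a difference of -0.61 for Id3 (edgeR adjusted p = 0.00899), -0.55 for Bambi (edgeR adjusted p = 0.00359), -0.40 for Smad6 (edgeR adjusted p = 0.0306), -0.47 for Id2 (edgeR adjusted p = 0.0496) and -0.66 for Id4 (edgeR adjusted p = 0.0499). Id1 and Smad7 gave -0.27 and -0.12 and did not pass. Each mutant holds 1 male and 2 female embryos, so that this comparison is balanced for sex.

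The mesenchyme was then divided into 11 regions by the genes that the study lists for its Wt clusters, with Bambi left out of the list. P1 to P4 are progenitors whose lists all hold Msx1. P1-like cells are marked by Pax1, Alx4 and Runx2, P2-like cells by Shh, Bmp4 and Hand2, P3-like cells by Lhx2, Lhx9 and Asb4, and P4-like cells by Hoxa13, Hoxd13, Jag1 and Tfap2b, genes of the distal limb bud from which the digits arise. In Wt, 8 of 11 P1 genes, 6 of 11 P2 genes, 6 of 10 P3 genes and 7 of 9 P4 genes were highest in their own region, which the gate itself favours. Between 8.26% and 10.9% of the mesenchymal cells of a library lay within 0.1 of the line to another region. P4-like cells numbered 38 to 525 per library, P2-like cells 33 to 528, P3-like cells 64 to 986 and P1-like cells 43 to 682.

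In P4-like cells, Id1, Id2 and Id3 rose in the mutants, and all 7 members had a higher fitted level than in Wt. Id2, whose protein binds E proteins, was at 160.3, 89.1 and 118 CPM in Wt, at 249, 229 and 199 CPM in E1C8Δ/Δ and at 228, 180.0 and 241 CPM in E1C5Δ/Δ. Id3 was at 249, 239.7 and 269 CPM in Wt, at 541, 472 and 419 CPM in E1C8Δ/Δ and at 440.1, 328 and 346 CPM in E1C5Δ/Δ. Id1 was at 345, 288 and 293 CPM in Wt, at 537, 424 and 359.9 CPM in E1C8Δ/Δ and at 624, 439 and 426 CPM in E1C5Δ/Δ. In each of the 3 genes all 6 mutant libraries lay above all 3 Wt libraries, and the ranges of the alleles overlapped. On the log2 scale the differences of both mutants from Wt were 0.89 for Id2 (SE 0.15, edgeR adjusted p = 0.00585), 0.77 for Id3 (SE 0.12, edgeR adjusted p = 0.00368) and 0.63 for Id1 (SE 0.15, edgeR adjusted p = 0.0444). The 3 of 7 members called stand beside 1.85% of all 11183 genes. The median difference of the 7 members was 0.63, while that of all genes tested was 9.96e-05.

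Id4 was low in P4-like cells but lay apart as well, at 3.64, 3.44 and 3.32 CPM in Wt, 8.68, 5.42 and 5.33 CPM in E1C8Δ/Δ and 5.57, 4.15 and 5.41 CPM in E1C5Δ/Δ. Its log2 difference of 0.68 did not pass the test (edgeR adjusted p = 0.09999). All 4 Id genes thus had every mutant library above every Wt library, as had 1.96% of all genes. Smad6 was at 9.60, 9.14 and 9.47 CPM in Wt, 9.30, 12.2 and 10.9 CPM in E1C8Δ/Δ and 10.97, 6.69 and 9.22 CPM in E1C5Δ/Δ, with overlap of the groups. Smad7 was at 106, 86.4 and 71.5 CPM in Wt, 91.2, 101 and 74.8 CPM in E1C8Δ/Δ and 103, 96.7 and 119 CPM in E1C5Δ/Δ. Their log2 differences of 0.13 and 0.17 did not pass. Bambi was at 76.6, 71.4 and 85.5 CPM in Wt, 144.5, 111 and 111 CPM in E1C8Δ/Δ and 86.6, 70.6 and 81.4 CPM in E1C5Δ/Δ, so that every E1C8Δ/Δ library lay above Wt, as for 13.3% of all genes, and the E1C5Δ/Δ libraries overlapped it.

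By allele, 4 members were called in P4-like cells of E1C8Δ/Δ beside 10.0% of all genes, with log2 differences of 0.95 for Id3, 0.91 for Id2, 0.79 for Id4 and 0.67 for Bambi. In E1C5Δ/Δ, Id2 was called with 0.86 (edgeR adjusted p = 0.0175) beside 0.832% of all genes. Id3 gave 0.60 (edgeR adjusted p = 0.0501) and Id1 gave 0.73 (edgeR adjusted p = 0.0570) there and did not pass. Between the alleles, Bambi was the member whose difference in P4-like cells passed, with -0.60 for E1C5Δ/Δ minus E1C8Δ/Δ (edgeR adjusted p = 0.0110) beside 8.13% of all genes. For Id2 the difference between the alleles was -0.05 with an SE of 0.16.

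The calls in P4-like cells were lost in several smaller or adjusted fits, in which the differences stayed positive. With embryo sex as a covariate the log2 differences were 0.71 for Id2 (edgeR adjusted p = 0.144), 0.63 for Id3 (edgeR adjusted p = 0.112) and 0.44 for Id1 (edgeR adjusted p = 0.442). No member was called in that fit, beside 17 of 11183 genes. In the 5 male libraries, where each mutant is a single embryo, the differences were 0.70, 0.62 and 0.43. Without the 2 small libraries they were 0.82, 0.76 and 0.51, again with no member called, beside 57 of 11381 genes. Id2 and Id3 kept their calls when any single library was left out, with 0.72 to 1.12 for Id2 and 0.68 to 0.82 for Id3, while Id1 lost its call in 7 of 9 such fits.

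Other genes moved with these values in P4-like cells. The summed level of the 7 mesenchyme markers was 1343 to 1369 CPM in Wt and 1527 to 1826 CPM in the mutants. The 10 genes of the P3 list summed to 983 to 1214 CPM in Wt and 1219 to 1559 CPM in the mutants, and the 11 genes of the P1 list to 243 to 297 CPM in Wt and 381 to 554 CPM in the mutants. Msx1 and Msx2, which are themselves BMP targets, belong to both lists. The C1 list summed to 191 to 232 CPM in Wt and 121 to 208 CPM in the mutants and the C3 list to 67.7 to 112 CPM and 29.1 to 116 CPM, each with 5 of 6 mutants below Wt. The M2 list summed to 46.0 to 74.6 CPM and 68.1 to 104 CPM, with 5 of 6 mutants above Wt. The P4 list itself summed to 918 to 1184 CPM in Wt, 964 to 1110 CPM in E1C8Δ/Δ and 786 to 912 CPM in E1C5Δ/Δ. P4-like cells made up 6.98% to 8.29% of the mesenchymal cells in Wt, 4.75% to 7.85% in E1C8Δ/Δ and 4.10% to 5.69% in E1C5Δ/Δ. The part of the cells' composition in the rise of the Id genes was not tested. With genes that may change with the genotype, such as Msx1, Msx2 and Hoxa13, left out of the gate, Id2 and Id3 were still called, with 0.82 and 0.67, and Id1 gave 0.55 (edgeR adjusted p = 0.0563). With the gate replaced by Hoxa13 and Hoxd13 alone, Id1, Id2, Id3 and Bambi were called, with 0.73, 0.77, 0.91 and 0.62.

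In P2-like cells, which include the Shh-expressing cells, Bambi and Id3 rose. Bambi was at 68.4, 46.1 and 53.2 CPM in Wt, 139.6, 100.7 and 104 CPM in E1C8Δ/Δ and 67.3, 69.2 and 73.3 CPM in E1C5Δ/Δ, with only Wt 1 reaching the mutant levels. Id3 was at 324, 265 and 268 CPM in Wt, 487, 597 and 469 CPM in E1C8Δ/Δ and 313, 447 and 404 CPM in E1C5Δ/Δ, with 5 of 6 mutant libraries above Wt. The log2 differences were 0.67 for Bambi (SE 0.12, edgeR adjusted p = 0.0313) and 0.65 for Id3 (SE 0.13, edgeR adjusted p = 0.0489), 2 of 7 members beside 0.288% of all genes. Id1 and Id2 gave 0.37 and 0.40 and did not pass. In E1C8Δ/Δ both genes were called alone, with 0.99 for Bambi and 0.84 for Id3, beside 3.4% of all genes. In E1C5Δ/Δ neither was called, with 0.35 and 0.46, beside 0.227% of all genes. The difference between the alleles passed for Bambi, with -0.64 for E1C5Δ/Δ minus E1C8Δ/Δ (edgeR adjusted p = 0.0248), beside 3.39% of all genes.

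As in the whole mesenchyme, these calls were close to the threshold. No member was called in P2-like cells with the sex covariate, beside 2 of 11445 genes, or without the 2 small libraries, beside 4 of 12013. The same held with the changed genes left out of the gate, beside 20 of 11516 genes. In these fits and in the male libraries, the log2 differences were 0.57 to 0.67 for Bambi and 0.63 to 0.74 for Id3. The count was 0 without Wt 2, Wt 3, E1C8Δ/Δ 1, E1C8Δ/Δ 2, E1C8Δ/Δ 3 or E1C5Δ/Δ 2, it was 1 without E1C5Δ/Δ 1, and it was 2 without Wt 1 or E1C5Δ/Δ 3. The P1 list summed to 156 to 233 CPM in P2-like cells of Wt and to 265 to 428 CPM in the mutants. The P3 list, of the cells with the highest Id3 and Bambi in Wt, summed to 463 to 661 CPM and 604 to 965 CPM, with 5 of 6 mutants above Wt, the P4 list to 215 to 330 CPM and 291 to 409 CPM, with 4 above, and the C1 list to 218 to 257 CPM and 119 to 241 CPM, with 5 below. Their part in the result was not tested.

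P3-like cells, in which Id3, Smad7 and Bambi were highest in Wt, held no member that passed the test for both mutants. Id3 was at 405, 409 and 404 CPM in Wt, 573, 535 and 489.6 CPM in E1C8Δ/Δ and 364, 348 and 292 CPM in E1C5Δ/Δ. E1C8Δ/Δ thus lay above Wt, as for 13.0% of all genes, and E1C5Δ/Δ below it. Bambi was at 90.2, 86.6 and 90.9 CPM in Wt, 86.3, 110.3 and 105 CPM in E1C8Δ/Δ and 64.8, 63.3 and 72.4 CPM in E1C5Δ/Δ. None of the 7 members was called for both mutants by edgeR, beside 0.152% of all genes, and at an unadjusted p under 0.05 there was 1, Smad7, with -0.33, beside 1930 of 12496 genes. The members of E1C5Δ/Δ other than Id2 lay below every Wt library in all 3 embryos, 6 of 7 members beside 8.5% of all genes, although none was called. The alleles differed here in Id3 with -0.62 (edgeR adjusted p = 0.0117), Id4 with -0.91 (edgeR adjusted p = 0.0239) and Bambi with -0.57 (edgeR adjusted p = 0.0110), beside 6.79% of all genes.

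In P1-like cells none of the members was called for both mutants by edgeR, beside 0.439% of all genes, and 3 had an unadjusted p under 0.05, beside 1804 of 12062 genes. These were Bambi with a log2 difference of 0.40, Id4 with -0.54 and Smad7 with -0.35. Bambi was at 37.5, 32.9 and 25.8 CPM in Wt, 47.9, 49.2 and 50.1 CPM in E1C8Δ/Δ and 35.02, 34.97 and 39.5 CPM in E1C5Δ/Δ, and it was called in E1C8Δ/Δ alone with 0.60 (edgeR adjusted p = 0.0269), beside 2.72% of all genes. Id1, which was highest in P1-like cells in Wt, was at 598, 551 and 474 CPM in Wt, 636, 625 and 443 CPM in E1C8Δ/Δ and 431, 560.2 and 376 CPM in E1C5Δ/Δ.

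Whether the mutants' effect differed between regions was tested in a single fit of P2-like, P3-like and P4-like cells with the library as a block. Relative to P3-like cells, the effect in P4-like cells was greater by 0.96 on the log2 scale for Id2 (SE 0.13, edgeR adjusted p = 7.84e-05), 0.67 for Id1 (SE 0.15, edgeR adjusted p = 0.0152), 0.66 for Id3 (SE 0.13, edgeR adjusted p = 0.00519) and 0.46 for Smad7 (SE 0.11, edgeR adjusted p = 0.0226), 4 of 7 members beside 0.812% of all 12440 genes. Bambi gave 0.40 there and did not pass (edgeR adjusted p = 0.0520). In P2-like cells the effect on Bambi was greater than in P3-like cells by 0.68 (SE 0.10, edgeR adjusted p = 0.000752), 1 of 7 members beside 0.105% of all genes. For Smad7 the difference came from values of both signs, 0.17 in P4-like and -0.33 in P3-like cells, neither of which was called. In P3-like cells Id1, Id2 and Bambi gave -0.03, -0.06 and -0.07, and Id3 gave 0.11. The fit takes both alleles as a single mutant group, although they differed in P3-like cells. There Bambi gave -0.35 in E1C5Δ/Δ and 0.22 in E1C8Δ/Δ, and Id3 gave -0.21 and 0.42.

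The differences between regions compare cells of the same embryos. In the 5 male libraries, the mutant group of the fit held a single embryo of each allele. There 7 of the 14 pairs of member and region were called, against 5 in all libraries. Id2, Id1 and Id3 gave 0.82, 0.56 and 0.53 for P4-like cells and Bambi 0.71 for P2-like cells. The count was 3 without Wt 2, without Wt 3 and without the 2 small libraries, it was 8 without E1C5Δ/Δ 1, and Id2 was called for P4-like cells in every one of these fits. For these fits and the male libraries the share of all genes called is not given. A higher or lower count is thus not read as a stronger or weaker result. Smad7 lost its call for P4-like cells in the male libraries, with 0.31 (edgeR adjusted p = 0.392), without the 2 small libraries, with the changed genes left out of the gate, and without Wt 1, Wt 3, E1C5Δ/Δ 2 or E1C5Δ/Δ 3, with 0.37 to 0.46 in these other fits. Id1 lost its call for P4-like cells without Wt 2, Wt 3 or the 2 small libraries, and Bambi its call for P2-like cells without Wt 2.

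**Figure D2:**
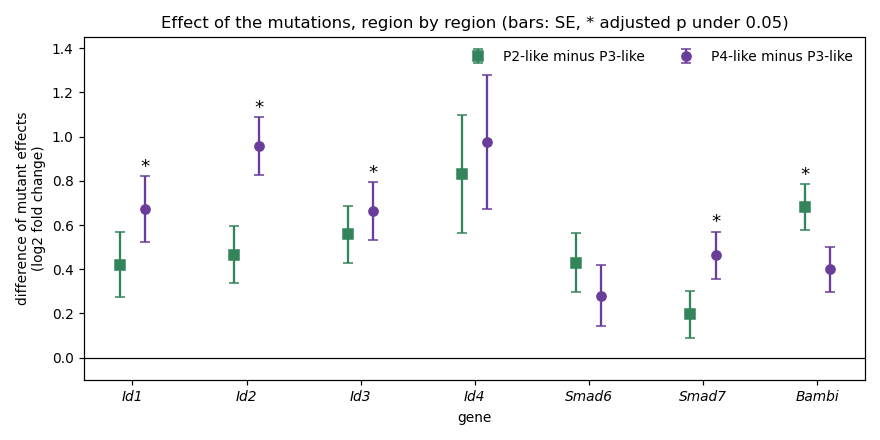
Mutant effect in P2-like and in P4-like cells minus that in P3-like cells, as a log2 difference with bars of 1 SE, for the 7 members. Asterisks mark an adjusted p under 0.05, namely Bambi in P2-like cells at 0.68 and Id1, Id2, Id3 and Smad7 in P4-like cells at 0.67, 0.96, 0.66 and 0.46.

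Across all 11 regions, 9 of 77 pairs of member and region were called higher and none lower for both mutants, beside 0.302% of all pairs of gene and region called higher and 0.55% called lower. These were Id1 and Id2 in P4-like cells, Id3 in P2-like, P4-like, M3-like and M4-like cells and Bambi in P2-like, M1-like and M3-like cells. For E1C8Δ/Δ, 21 pairs were called higher and none lower, beside 2.02% and 2.8% of all pairs, and 68 of 77 log2 differences were positive. Id3 and Bambi were called in 8 regions each and Id2 in 4. The highest values for Id3 and Bambi were 1.299 in M3-like cells, whose list holds Grem1, and 1.24 in C1-like cells. For Bambi in C1-like cells, E1C8Δ/Δ 1 held 92.1 CPM, from 32 cells, against 42.0 and 42.1 CPM in the other E1C8Δ/Δ libraries. Bambi gave 1.19 in M3-like cells. For E1C5Δ/Δ, 1 pair was called higher, Id2 in P4-like cells, and 1 lower, Id4 in C2-like cells with -1.08 (edgeR adjusted p = 0.0493), beside 0.166% and 0.451% of all pairs, and 30 of 77 differences were positive. The alleles share their Wt libraries, so that the 2 sets of values are not independent of each other. Between the alleles, E1C5Δ/Δ was called lower than E1C8Δ/Δ in 3 members each in C1-like cells (Id2, Id3 and Bambi, beside 3.19% of all genes called in either direction), C2-like cells (Id3, Id4 and Bambi, beside 2.37%), C3-like cells (Id3, Id4 and Bambi, beside 3.63%), M1-like cells (Id1, Id2 and Id3, beside 6.73%), M2-like cells (Id2, Id3 and Id4, beside 5.08%) and M3-like cells (Id2, Id3 and Bambi, beside 6.15%). No member was called between the alleles by edgeR in M4-like cells, beside 6.86%, or in P1-like cells, beside 2.15%. At an unadjusted p under 0.05 there were 4 in each, Id2, Id3, Smad6 and Bambi, all lower in E1C5Δ/Δ, beside 2924 of 12466 genes in M4-like and 2222 of 12062 in P1-like cells.

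**Figure D3:**
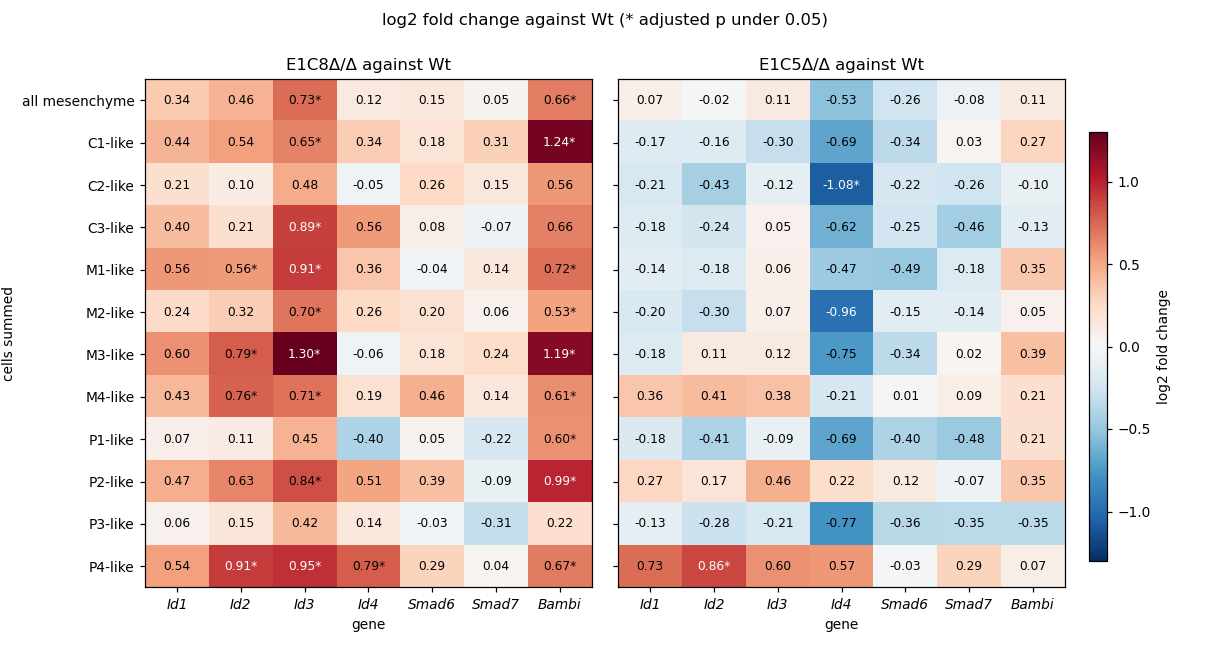
Log2 difference from Wt of the 7 members in the whole mesenchyme and in the 11 regions, for E1C8Δ/Δ and for E1C5Δ/Δ, as coloured cells with the value printed and an asterisk at an adjusted p under 0.05. The E1C8Δ/Δ panel holds 21 marked cells over the regions, all higher, and the E1C5Δ/Δ panel 1 higher (Id2, P4-like) and 1 lower (Id4, C2-like).

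The share of mesenchymal cells with at least 1 UMI of a member overlapped between the groups. For Id1 it was 92.3% to 94.2% in Wt and 89.8% to 96.7% in the mutants, and for Id3 89.4% to 91.7% and 87.5% to 95.9%. Bambi was found in 56.1% to 63.6% of the cells of Wt and 55.1% to 69.2% of those of the mutants, and Id4 in 14.8% to 25.4% and 11.2% to 16.5%. Such shares depend on depth. The median UMIs per mesenchymal cell of a library were 29517 to 47443 in Wt, 16250.5 to 28067.5 in E1C8Δ/Δ and 30234 to 43428 in E1C5Δ/Δ. In erythroid cells, given as a guide to background, although their mean levels of Id1, Id3, Id4 and Bambi were above those reckoned for free mesenchymal RNA, Id1 was found in 26.5% to 46.9% of the cells, Id3 in 21.6% to 46.7%, Bambi in 8.43% to 18.2% and Id4 in 1.0% to 3.37%, at median depths per library of 18079 to 76444 UMIs per cell against 16250.5 to 47443 in mesenchyme. The erythroid depths include globin UMIs. With all UMIs, no member passed a two-sided exact permutation test of 6 mutant against 3 Wt libraries, whose smallest possible p is 0.0238. With every cell thinned to 10000 UMIs, the share for Bambi was 26.3% to 28.7% in Wt and 26.7% to 40.5% in the mutants (exact permutation p = 0.0476, unadjusted, the lowest of 14 such tests). Thinned, Id1 gave 73.8% to 79.4% in Wt and 73.9% to 89.6% in the mutants, and Id3 71.7% to 75.1% and 69.5% to 89.9%. Id4 gave 4.45% to 8.12% and 3.64% to 7.30%.

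Within the Wt mesenchyme the members were not evenly spread. The regions were set from other genes of the same cells, so that the p-values of this comparison are not independent evidence of a pattern. Of 77 pairs of member and region, 61 differed from the mean of the other regions, beside 33.7% of all pairs of gene and region over the 11 regions. The top levels of Id1 were found in P1-like cells, 541 ± 63 CPM (SD, n = 3 libraries), and P3-like cells, 523 ± 3.8 CPM, which overlapped, and lowest in M3-like cells at 153 ± 27 CPM, 3.54-fold below. The step from P3-like to P2-like cells, at 374 ± 53 CPM, was without overlap. Id3 led in P3-like cells at 406 ± 2.9 CPM, above every P1-like value, and was lowest in M3-like cells at 70.9 ± 2.4 CPM, 5.72-fold below. Id2 ran from 399 ± 102 CPM in P1-like to 108 ± 25 CPM in M3-like cells with overlap between all neighbours in the order, and stood at 122 ± 36 CPM in P4-like cells.

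Id4 ran from 13.7 ± 2.7 CPM in P1-like and 11.7 ± 2.5 CPM in C2-like cells to 2.83 ± 0.49 CPM in M3-like cells, again with overlap between neighbours. Bambi was the member with the clearest steps. It was at 89.2 ± 2.3 CPM in P3-like, 77.9 ± 7.1 CPM in P4-like, 55.9 ± 11.4 CPM in P2-like and 41.0 ± 1.4 CPM in C2-like cells, each without overlap with the next, and at 15.9 ± 0.18 CPM in M3-like cells, 5.6-fold below the highest. Smad7 was highest in P3-like cells at 134 ± 29 CPM and lowest in C1-like cells at 65.4 ± 6.8 CPM, and Smad6 ran from 16.4 ± 0.94 CPM in P1-like to 8.80 ± 0.51 CPM in M4-like cells. M3-like cells had the lowest means of Id1 to Id4 and Bambi, without overlap with the next region for Id3 and Bambi alone. M3-like and M4-like cells were gated with lists that hold Grem1. In Wt, Grem1 was at 151 ± 37 CPM in M3-like and 79.6 ± 10.6 CPM in M4-like cells. It was at 3.92 ± 1.66 CPM in P1-like and 28.6 ± 4.8 CPM in P4-like cells. M1-like cells, next lowest in Id1, Id3 and Bambi, held 12.7 ± 3.5 CPM of Grem1. C1-like and C3-like cells, with Bambi at 21.4 and 24.1 CPM, held 4.74 ± 1.59 and 6.10 ± 1.94 CPM of Grem1.

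**Figure D4:**
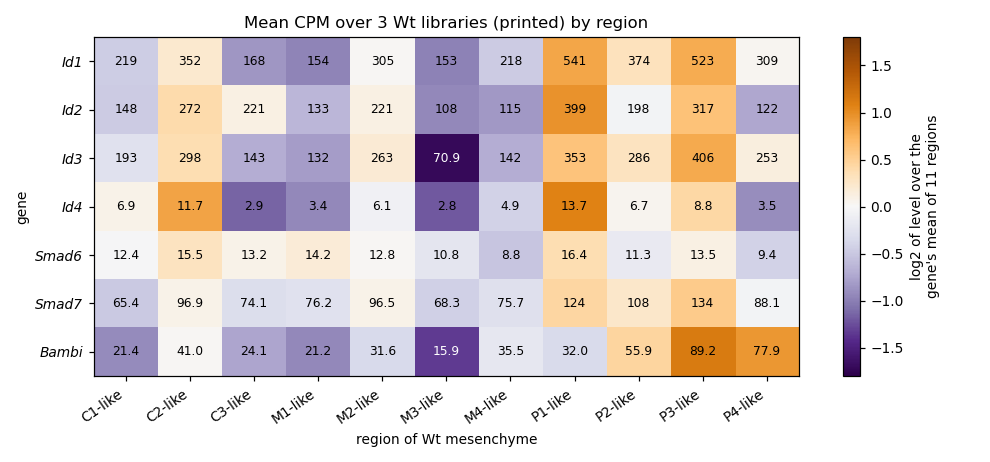
Mean level of the 7 members in the 11 regions of the Wt mesenchyme, printed in CPM over 3 Wt libraries and coloured by the log2 of the level over the mean of the gene's 11 regions. P1-like and P3-like cells hold the highest levels of Id1, at 541 and 523 CPM, and M3-like cells the lowest, at 153 CPM.

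Over the 99 sums of region and library, centred per library, other members were among the 3 genes most like Id1, Id3 and Smad7, but not among those most like Id2, Smad6 and Bambi. These correlations are a description, since the sums share cells, libraries and depth. Among 7703 genes of at least 10 CPM, Id3 was closest to Id1 (Pearson's r = 0.92), followed by Msx2 with 0.91 and Smad7 with 0.84. For Id3 the closest after Id1 were Msx2 with 0.86 and Serpinf1 with 0.84, and for Smad7 they were Msx2 with 0.85, Id1 with 0.84 and Id3 with 0.76. Id2 was closest to Rspo4 with 0.90, Oxct1 with 0.83 and Msx2 with 0.82. Msx2 and Rspo4 are genes of the region lists. Bambi was closest to Daam2 with 0.88, Crmp1 with 0.83 and Pcca with 0.81, and Smad6 to Mpped2 with 0.75, Fos with 0.74 and Klf4 with 0.72. Between Smad6 and Bambi r was 0.01. Id4 was under 10 CPM and was left out.

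Outside the mesenchyme the members split by lineage, and 24 of 28 pairs of member and lineage differed from the mesenchyme of the same libraries. This is read against the 44.9% of all 12721 genes that differed in muscle precursors, 55.7% in ectoderm, 74.4% in endothelium and 81.7% in erythroid cells. In muscle precursors, marked by Pax3 and Lbx1, Id2 was at 357 to 669 CPM (median 500.1) over 9 libraries against a mesenchymal mean of 214 CPM, higher in 9 of 9 libraries, with a log2 difference of 1.27 (SE 0.12, edgeR adjusted p = 9.15e-12). Id3 was at 314 to 659 CPM against 275 CPM, also higher in 9 of 9, with 0.64. Id1 was at 89.8 to 216 CPM against 323 CPM, lower in every library, and so were Id4 and Bambi, with log2 differences of -1.28, -2.22 and -1.93. Smad6 and Smad7 were not called in muscle precursors, with 0.20 and -0.11.

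In endothelium, Id3 and Bambi stood above the mesenchyme and the other 5 members below it. Id3 was at 435 to 667 CPM (median 535) over 7 libraries against 264 CPM, a log2 difference of 1.26 (SE 0.10, edgeR adjusted p = 1.06e-14), and Bambi at 95.9 to 143 CPM against 46.4 CPM, with 1.56. Id1, the relative of Id3 with the most similar pattern in mesenchyme, was at 77.8 to 158 CPM against 316 CPM, with -1.42, and Id2 at 19.3 to 68.4 CPM against 209 CPM, with -2.24. In the ectoderm with its apical ridge, Bambi was at 92.1 to 215 CPM over 6 libraries against 47.1 CPM, with 1.76, and Id4 and Smad6 were higher as well, with 1.19 and 0.56, while Id1 and Smad7 were lower, with -0.98 and -0.40. In the ridge cells alone, which reached 20 cells in 2 libraries, Bambi was at 553 CPM in Wt 2 and 1008 CPM in E1C8Δ/Δ 2.

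In erythroid cells all 7 members were lower than in mesenchyme, at 9.51 to 25.7 CPM for Id1 and 1.64 to 4.37 CPM for Smad7. The 8 erythroid markers, which include the globins, held 332050 to 478690 CPM of the erythroid sums, which lowers the CPM of every other gene. The fitted log2 differences ran from -3.49 for Smad7 to -0.76 for Smad6, with -2.78 for Id1. From the Prrx1 found there, free mesenchymal RNA would give 10.81 CPM of Id1 and 3.35 CPM of Smad7, against means of 16.8 and 3.12 CPM. For Id4, Smad6 and Bambi it would give 0.157, 0.427 and 1.70 CPM, below the means of 0.696, 2.39 and 4.93 CPM. In muscle precursors the same reckoning gives 23.2 CPM of Id2 and 26.0 CPM of Id3, and in endothelium 9.65 CPM of Id3 and 1.58 CPM of Bambi, all far below the measured levels. For Bambi in muscle precursors, at 8.03 to 21.1 CPM, it gives 4.67 CPM.

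**Figure D5:**
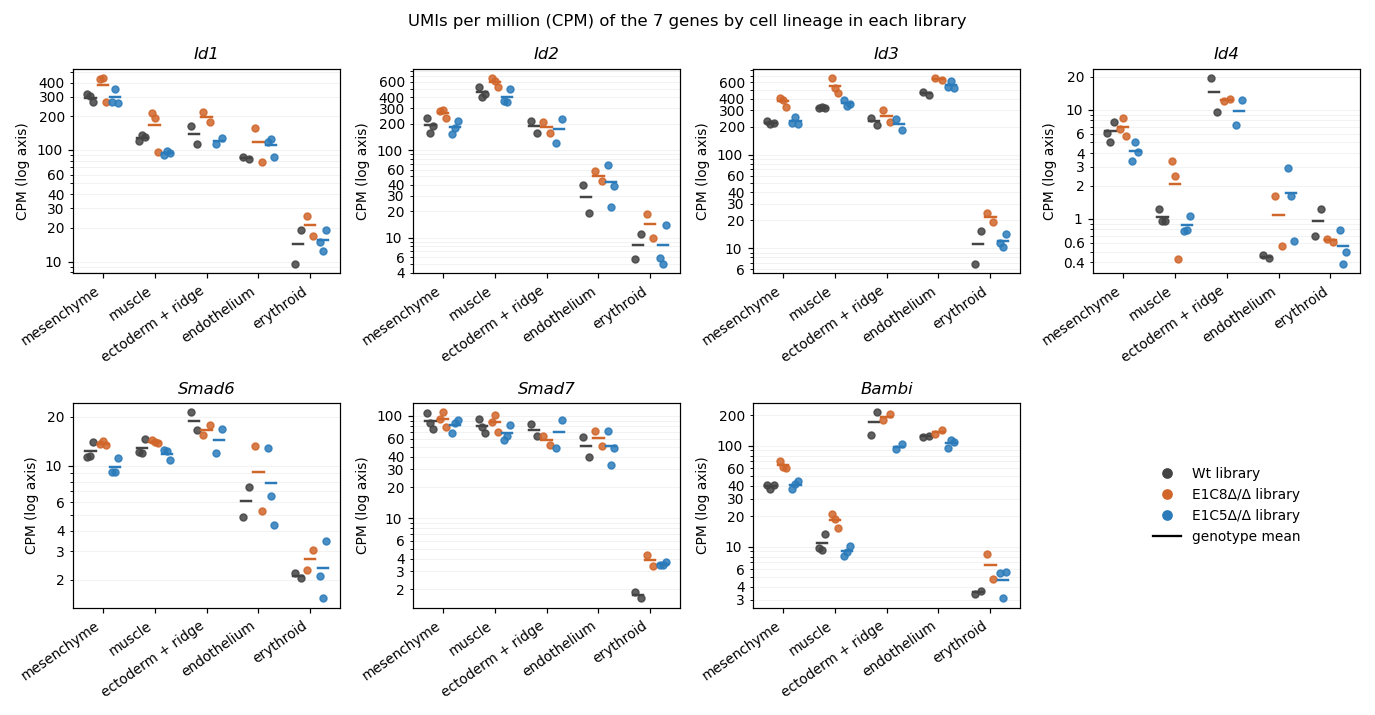
Levels of the 7 members in mesenchyme, muscle precursors, ectoderm with ridge, endothelium and erythroid cells, in CPM on a log axis, with a point for each library that held at least 20 cells of the lineage, coloured by genotype, and a bar at the mean of each genotype with more than 1 such library. Id2 is highest in muscle precursors, at 357 to 669 CPM, and Id3 in endothelium, at 435 to 667 CPM.

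Of 53 other genes of the pathway, 51 were tested in the whole mesenchyme, and none was called higher and 2 lower in the mutants, beside 0.65% and 1.5% of all genes. These were the secreted antagonist Grem1, as given above, and Twsg1, which binds BMPs together with chordin and was at 42.0, 37.9 and 41.7 CPM in Wt, 29.5, 32.4 and 29.8 CPM in E1C8Δ/Δ and 30.4, 31.5 and 35.2 CPM in E1C5Δ/Δ. Its log2 difference was -0.34 (SE 0.07, edgeR adjusted p = 0.0267), with all 6 mutant libraries below Wt, as for 3.34% of all genes. No ligand (7 tested), receptor (6), transducing SMAD (4), intracellular brake (7) or E protein (3) was called. The median log2 difference of the 51 genes was -0.16.

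In P4-like cells 3 of 40 tested genes of the pathway were called higher, the target genes Msx1, Msx2 and Gata3, and 4 lower, Grem1, Twsg1, the matricellular antagonist Smoc1 and the SMAD corepressor Ski, beside 0.706% of all genes called higher and 1.14% lower. These and the following genes were named after their values were seen, and Msx1 is a gene of the gate of all P regions. Msx2 was at 12.99, 17.7 and 12.1 CPM in Wt, 55.8, 44.4 and 39.9 CPM in E1C8Δ/Δ and 54.0, 33.2 and 47.7 CPM in E1C5Δ/Δ, a log2 difference of 1.65 (edgeR adjusted p = 0.000279). Msx1 gave 0.78, Gata3 2.31, Smoc1 -1.28, Ski -0.51 and Twsg1 -0.41, and Grem1 in the same cells gave -1.82 (edgeR adjusted p = 0.000108). In P2-like cells Msx1 and Msx2 were called, with 0.76 and 1.22, of 38 genes tested, beside 0.166% of all genes called higher, and in P3-like cells none of 45, beside 0.072% called higher and 0.08% lower, where Msx2 gave 0.09.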

How the data were processed

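Single-cell RNA-seq (10x Genomics 3′ v3.1) of 9 forelimb bud libraries was used. The authors made the deposited UMI counts per gene and cell barcode with Cell Ranger 6.0.1 on mm10, which is GRCm38, and the submitters' processing notes also name Seurat 4.3.0.1. The deposited counts are not normalised. Following the limits that the study states, barcodes with over 2500 genes, under 200000 UMIs and under 10% mitochondrial UMIs were kept, and doublets were scored against simulated ones and removed at 0.8% per 1000 barcodes. Cells were assigned to lineages by marker genes (mesenchyme, at least 4 of 7 markers) and mesenchymal cells to the 11 region lists of the study by their highest mean score, with thresholds set after the marker distributions were seen. The 7 genes, the lists and the comparisons were chosen with earlier results of these data known.

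UMIs were summed per library and class with at least 20 cells and tested with edgeR 4.0.16 in R 4.3.3 (quasi-likelihood test, TMM, filterByExpr, Benjamini-Hochberg adjustment over all autosomal genes tested, threshold 0.05). Fits between genotypes held all 9 libraries. Lineages, Wt regions and the effect between regions were fitted with the library as a block. Where nothing says that embryos came from separate litters, the p-values measure the spread between these libraries only. Alternatives were DESeq2 1.42.0, RLE size factors, no filter on low counts, a replicate block, embryo sex as covariate, doublets or mixed cells kept, over 1000 genes, cells thinned to 10000 UMIs, other gates, male libraries only, leaving out the small libraries and leaving out each replicate in turn. The male-only fits, those without the small libraries, and those of the effect between regions and the lineages without each replicate were added after the data were seen. The fits were tested on simulated data. The 7 members and Grem1 were always named, with pathway genes that were called in mesenchyme with all 6 mutant libraries on one side of Wt, and the 3 genes most like each member. Promoter windows came from a set of RefSeq upstream sequences that held none for Id1, and no window from chromosome 18 is reported. The libraries differed in depth, and the smallest gave 592 cells.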

Additional observations from a re-analysis of the deposited data

Results flagged for a closer look

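In the whole mesenchyme and P1-like to P4-like cells, the effect of the alleles differed, by a test of the difference itself, for 10 combinations of a member and a class of cells, and E1C5Δ/Δ lay below E1C8Δ/Δ in each. The whole mesenchyme holds the cells of the regions, so that these combinations overlap. In C1-like, C2-like, C3-like, M1-like, M2-like and M3-like cells 3 members each also differed in this direction, beside 2.37% to 6.73% of all genes in either direction, and in M4-like cells none was called by edgeR, beside 6.86% (4 at an unadjusted p under 0.05). In the whole mesenchyme the difference of the log2 effects, E1C5Δ/Δ minus E1C8Δ/Δ, was -0.47 for Id2, -0.61 for Id3, -0.66 for Id4, -0.40 for Smad6 and -0.55 for Bambi, beside 10.2% of all genes called. In P2-like cells it was -0.64 for Bambi (edgeR adjusted p = 0.0248), beside 3.39%. In P3-like cells it was -0.62 for Id3, -0.91 for Id4 and -0.57 for Bambi, beside 6.79%. In P4-like cells it was -0.60 for Bambi, beside 8.13%, and in P1-like cells no member was called, beside 2.15%.

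The mutants' effect also differed between regions of the same libraries for 5 of 14 pairs tested. In P2-like minus P3-like cells it was 0.68 for Bambi, beside 0.105% of all genes called. In P4-like minus P3-like cells it was 0.67 for Id1, 0.96 for Id2, 0.66 for Id3 and 0.46 for Smad7, beside 0.812%.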

How the results depend on the processing

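Of the single-gene values under alternatives, 1474 kept their direction and side of the threshold, 91 lost a call and 7 gained it. Counts of members called moved by over 1.5 times as follows, and the cause was not tested. In mesenchyme of both mutants (2 called) the count was 0 with the replicate block, the sex covariate, male libraries only or without the 2 small libraries, and 1 with doublets kept, over 1000 genes or thinned cells. For E1C8Δ/Δ (2) it was 0 with male libraries only. In P1-like cells (0) it was 1 with no filter. In P2-like cells (2) it was 0 with the replicate block, the sex covariate, over 1000 genes, the gate without changed genes, male libraries only or without the small libraries, and 1 with thinned cells or the single-marker gate. In P4-like cells (3) it was 0 with the sex covariate, male libraries only or without the small libraries. The effect between regions (5) gave 8 with the single-marker gate and 3 without the small libraries, and the shares (0) gave 1 when thinned. Smaller moves were 3 in mesenchyme of E1C8Δ/Δ with DESeq2, no filter or thinned cells, 2 in P4-like cells with doublets or mixed cells kept, thinned cells or the gate without changed genes and 4 with the single-marker gate, and, between regions, 7 in male libraries and 4 with the gate without changed genes, which gave 63 of the Wt region pairs (61). The replicate block changed no other count of members. The study says that cells were isolated and sequenced 3 times with a limb bud pair per genotype, but not that equal numbers mark the same round. Same-numbered libraries did not deviate together (correlations of -0.144 to 0.0722 over 9 pairs), so that the numbers were not taken to pair them. With the block, Id3 and Bambi gave edgeR adjusted p of 0.0719 and 0.0687 in mesenchyme and 0.108 and 0.0625 in P2-like cells. Leaving out each library gave 0 to 2 in mesenchyme, 2 to 3 for E1C8Δ/Δ, 0 to 2 in P2-like cells, 2 to 3 in P4-like cells, 3 to 8 between regions and 51 to 62 of the Wt region pairs.

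Of the values, 40 changed sign, 23 of them when a library was left out, none called (smallest adjusted p 0.109, edgeR). Thinned, Smad6 and Smad7 in mesenchyme gave 0.0565 and 0.0262, Smad6 in P1-like cells 0.0676 and Bambi in P3-like cells 0.0430. With male libraries only, E1C8Δ/Δ gave -0.0757 for Id1, -0.0669 for Id4 and -0.13 for Smad7, E1C5Δ/Δ gave 0.0197 for Id2 and 0.0248 for Smad7, and Smad6 in P4-like cells gave -0.0747, or -0.0244 with the sex covariate. Without the small libraries Smad6 gave 0.0417 for both mutants, Smad7 -0.0563 for E1C8Δ/Δ and Id1 -0.0102 for E1C5Δ/Δ. With the single-marker gate Id1, Id2 and Bambi in P3-like cells gave 0.14, 0.12 and 0.22. Leaving out each library gave, for both mutants, -0.16 to 0.0186 (Id1) and -0.28 to 0.0551 (Id2) in P1-like cells, -0.0802 to 0.0418 (Id1) and -0.18 to 0.0695 (Id2) in P3-like cells, -0.24 to 0.13 (Smad7) in P2-like cells, and -0.12 to 0.0263 (Smad6) and -0.14 to 0.13 (Smad7) in mesenchyme. For E1C5Δ/Δ it gave -0.0954 to 0.18 (Id1), -0.13 to 0.14 (Id2) and -0.20 to 0.0653 (Smad7), and for E1C8Δ/Δ -0.0375 to 0.27 (Id4) and -0.0815 to 0.19 (Smad7).

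Counts over all genes moved more. For the effect between regions they are given for the fit of all libraries only. In mesenchyme, 348 genes were called, against 1002 with DESeq2, 90 with the block, 8 with the sex covariate, 170 thinned, 19 in male libraries, 45 without the small ones and, leaving out each library, 107 (E1C5Δ/Δ 1) to 775 (E1C5Δ/Δ 3). In P4-like cells, 207 were called, against 667 with no filter, 109 with the block, 17 with the sex covariate, 75 thinned, 16 in male libraries, 57 without the small ones and 81 (Wt 2) to 458 (E1C5Δ/Δ 3) leaving out each library. In P2-like cells, 33 were called, against 87 with DESeq2, 329 with no filter, 5 with the block, 2 with the sex covariate, 13 in male libraries, 4 without the small ones and 11 to 55 leaving out each library. In P3-like cells, 19 were called, against 125 with DESeq2, 444 with no filter, 214 with the single-marker gate, 1 with the block, 0 with the sex covariate or without the small libraries, 9 in male libraries and 0 to 36 leaving out each library. In P1-like cells, 53 were called, against 115 with DESeq2, 418 with no filter, 17 with the block, 0 with the sex covariate, 1 without the small libraries, 3 in male libraries and 9 to 90 leaving out each library.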
